A study of Mus musculus with 12 samples.

Results

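The miR-23/27/24 clusters are a pair of mouse microRNA (miRNA) loci, each encoding a miR-23, a miR-27 and a miR-24. Their guide strands, the strands that are loaded into the silencing complex, were taken by exact match of the miRNA name in a deposited array table, which gave 5 of the 710 miRNAs measured. These are mmu-miR-23a, mmu-miR-27a, mmu-miR-23b, mmu-miR-27b and mmu-miR-24, of which mmu-miR-24 is made from both loci. Passenger strands, the partners of the guides in the hairpin and marked here by an asterisk, were on the array for 4 of the hairpins' arms, namely mmu-miR-27a*, mmu-miR-27b*, mmu-miR-24-1* and mmu-miR-24-2*.

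The study compared peripheral blood of 6 mice labelled as knockouts of Tff3 with that of 6 wild-type mice. Tff3 encodes trefoil factor 3, a small secreted peptide of mucosal surfaces. Each genotype held 3 males and 3 females by its labels. Per the labels' protocols, blood was drawn into tubes with an RNA stabiliser, total RNA including small RNA was purified from the pellet with a column kit, and biotin was added on the array by primer extension in a microfluidic device. The labels give no strain, age or construction of the knockout allele, and the design text speaks of a knock-down where the sample labels say KO. Tff3 mRNA was not measured on this array, so the genotype labels were not checked against it.

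The deposited table holds linear intensities, and 12 arrays were measured, 1 per mouse. Summed intensity ranged from 391740 in column WT-11 to 1111470 in column WT-8. Levels below are log2(intensity + 50) after quantile normalization, which gives every array the same distribution of values, so that miRNAs of equal rank on different arrays have equal levels. The number of arrays limits the precision. Probes differ in brightness, so the level of a miRNA was compared between arrays and not with that of another miRNA. Ranks on an array and differences within an array describe the brightness of probes and do not order the abundance of miRNAs. Whether the probes separate paralogues that differ by a single base was not tested, and no probe sequence was given. Knockout columns carry the label's own number and therefore a sex. Wild-type columns of this table are numbered differently, so their names give a genotype only, and no sex was assigned to them here.

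miRNAs pair with messenger RNAs mainly through the seed, bases 2 to 8 of the guide strand, and lower the stability and translation of their targets. In blood and bone marrow these clusters are known from work on lymphocyte and myeloid differentiation, where miR-23, miR-27 and miR-24 restrain T-cell effector programmes and early lymphoid fate. Outside the blood, miR-23 and miR-27 are known for roles in vessel sprouting, miR-27 for restraining fat-cell formation, and miR-23a for lowering atrophy ubiquitin ligases in skeletal muscle. Both loci are each transcribed as a single primary transcript, but the mature miRNAs can reach different levels through processing and decay.

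The RefSeq sequences of build GRCm38.p6 held 4 of the 5 guide strands, all but mmu-miR-23b, and they are shown because the seeds set which of these miRNAs can share targets and the remaining bases set how alike the paralogues are. Capitals mark the seed.
mmu-miR-23a: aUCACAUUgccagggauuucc
mmu-miR-27a: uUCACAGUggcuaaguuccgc
mmu-miR-27b: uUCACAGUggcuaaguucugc
mmu-miR-24: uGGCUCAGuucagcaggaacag
The 4 sequences carry 3 distinct seeds. mmu-miR-27a and mmu-miR-27b share theirs and are identical at 20 of 21 positions, with the substitution C19U (positions counted from 1 at the 5′ end, the base of mmu-miR-27a first). The seeds of mmu-miR-23a and mmu-miR-27a begin with the same 5 letters, while that of mmu-miR-24 is unrelated to both. Among the 1679 RefSeq mature names the seed of mmu-miR-27a occurs elsewhere in its paralogue alone. Another 4 names have the seed of mmu-miR-24, and 0 of them were on the array.

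mmu-miR-128 carries the letters of the miR-27 seed displaced by a single base, at positions 1 to 7, shown in capitals.
mmu-miR-128: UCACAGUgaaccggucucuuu

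For miR-24 the array reads the loci separately only through the passenger strands, since the guide strand is the same from both. Their first 16 bases, seed included, are identical and their 3′ ends differ.
mmu-miR-24-1*: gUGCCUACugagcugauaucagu
mmu-miR-24-2*: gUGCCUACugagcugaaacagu
The hairpins they come from are shown with both mature strands in capitals, the passenger strand first and the guide strand, common to both, second.
Mir24-1: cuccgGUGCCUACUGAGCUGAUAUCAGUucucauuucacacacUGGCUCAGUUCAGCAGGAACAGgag
Mir24-2: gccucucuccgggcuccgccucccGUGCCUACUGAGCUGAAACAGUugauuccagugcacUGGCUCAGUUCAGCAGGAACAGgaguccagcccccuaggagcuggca
In RefSeq (GRCm38.p6) Mir24-1 lies at chr13:63301208-63301275, behind Mir23b at chr13:63300484-63300557 and Mir27b at chr13:63300712-63300784, all on the plus strand and inside the protein-coding gene Aopep, which encodes an aminopeptidase. Mir24-2 lies at chr8:84208815-84208921, behind Mir23a at chr8:84208518-84208592 and Mir27a at chr8:84208672-84208758, also on the plus strand, and none of these overlaps a protein-coding gene. The 3 hairpins on chromosome 8 span 404 bases and the 3 on chromosome 13 span 792 bases. The annotation also places Mir3074-1 and Mir3074-2 over the Mir24-1 and Mir24-2 hairpins.

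All 5 guide strands ranked at or above the 71.1st percentile of the 710 miRNAs on each of the 12 arrays, and together they held between 1.18% and 2.80% of the summed intensity of an array. mmu-miR-23a, mmu-miR-24 and mmu-miR-23b were at or above the 93.4th percentile on every array. The highest percentile was the 88.3rd for mmu-miR-27a and the 84.0th for mmu-miR-27b. The passenger strand mmu-miR-24-2* lay between the 57.7th and 81.0th percentiles. For mmu-miR-27a* the range was from the 7.75th to the 32.2nd percentile.

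mmu-miR-23a, the miR-23 of the chromosome 8 locus, had knockout intensities of 1885, 4689.25 and 8342 (lowest, median and highest) and wild-type intensities of 3217, 3853 and 13107. WT-8 stood above all other arrays before normalization and KO-1 below them, and the genotypes overlapped. After normalization the level was 12.14 ± 0.54 (SD, n = 6) in knockouts and 12.39 ± 0.31 (SD, n = 6) in wild types. Columns WT-10, WT-11 and WT-12 had the same level because mmu-miR-23a held the same rank on each. The difference, knockout minus wild type, was -0.25 on the log2 scale (SE 0.23, 95% interval -0.74 to 0.23, limma adjusted p = 0.799). It was -0.06 without KO-1, and it was -0.09 when arrays were scaled to their 75th percentile, -0.15 with cyclic loess and -0.08 with no normalization.

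mmu-miR-23b, its paralogue on chromosome 13, had knockout intensities of 1769, 3307 and 5549.5 (lowest, median and highest) and wild-type intensities of 2129, 2669 and 8194. Again KO-1 was the lowest and WT-8 the highest of all arrays, and the groups overlapped. Its normalized level was 11.57 ± 0.39 (SD, n = 6) in knockouts and 11.90 ± 0.12 (SD, n = 6) in wild types. The wild types lay within a narrow span, from 11.73 to 12.03, and 4 knockouts lay below it, KO-1 and KO-3 by the most. KO-4 equalled the lowest wild type, and KO-6 lay above all of them. The difference of -0.33 (SE 0.17, 95% interval -0.70 to 0.04) had the smallest unadjusted p of the 5 guides, 0.0743, and a limma adjusted p of 0.586. Its size depended on the scaling, with -0.09 at the 75th percentile, -0.15 with cyclic loess and -0.07 with no normalization.

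**Figure D1:**
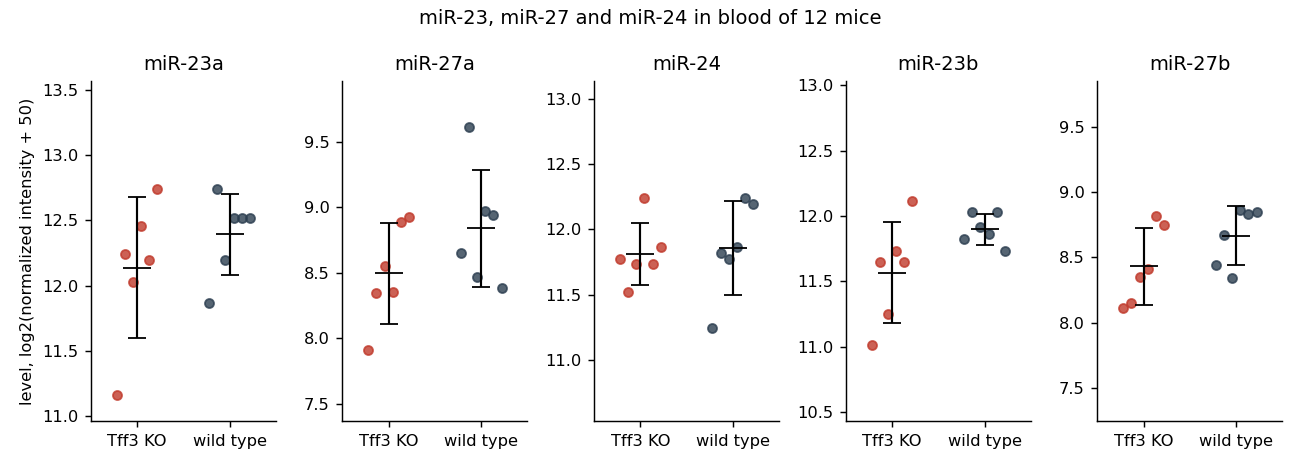
Normalized level, log2(intensity + 50) after quantile normalization, of the 5 guide strands in each of 12 arrays by genotype; points are mice, horizontal bars the mean and vertical bars 1 SD over 6 mice. Each panel has its own axis of equal length; knockout KO-1 is the lowest point for miR-23a at 11.17, and array WT-8 is the highest for miR-27a at 9.62.

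mmu-miR-27a, the chromosome 8 miR-27, had knockout intensities of 200, 334 and 472 and wild-type intensities of 300, 330 and 1312.5 (lowest, median and highest). The wild-type maximum belonged to WT-8. The medians of the genotypes were nearly equal before normalization, and the ranges overlapped. The normalized level was 8.50 ± 0.38 (SD, n = 6) in knockouts and 8.84 ± 0.45 (SD, n = 6) in wild types, where WT-8 at 9.62 stood above the other 5 at 8.38 to 8.97. The difference was -0.34 (SE 0.22, 95% interval -0.81 to 0.12, limma adjusted p = 0.670). It was -0.18 without WT-8 and -0.64 with the column block 1 to 8 against 9 to 12, a split of the table known from earlier results of these data, as a term of the fit. Columns 9 to 12 are all wild types, so that fit compares the knockouts with WT-7 and WT-8 alone.

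mmu-miR-27b, which differs from it by the single base given above, had knockout intensities of 208, 312 and 400 and wild-type intensities of 264, 314 and 540. The highest array was once more WT-8, and the lowest was KO-3. Its level was 8.43 ± 0.29 (SD, n = 6) in knockouts and 8.67 ± 0.23 (SD, n = 6) in wild types, with overlapping groups. The difference was -0.23 (SE 0.17, 95% interval -0.59 to 0.12, limma adjusted p = 0.737).

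mmu-miR-24, the product of both loci, had knockout intensities of 2365, 3467 and 4701 and wild-type intensities of 2369, 2945 and 7038. KO-1 and WT-8 were again the extremes, and the groups overlapped, with WT-8 above every knockout. After normalization the levels were 11.81 ± 0.24 (SD, n = 6) in knockouts and 11.86 ± 0.36 (SD, n = 6) in wild types. The difference was -0.05 (SE 0.18, 95% interval -0.43 to 0.34, limma adjusted p = 0.937). Its sign was not stable, since the difference was 0.06 when arrays were scaled to their 75th percentile, 0.07 with no normalization and 0.28 with the same column block in the fit. The last value sets the knockouts against WT-7 and WT-8 alone, and WT-7 had the lowest normalized level, 11.25.

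None of the 5 guide strands differed between the genotypes by limma with Benjamini-Hochberg adjustment over all 710 miRNAs (0 of 5, adjusted p from 0.586 to 0.937), and 0 of 5 had an unadjusted p under 0.05. Across all miRNAs 0 of 710 passed (0% called), while 64 (9.01%) had an unadjusted p under 0.05, 31 of them higher and 33 lower in knockouts. Exact Wilcoxon tests also called 0. With 6 against 6 arrays the smallest two-sided p of that test is 0.00216, so calls could come only as at least 31 miRNAs together. That count therefore carries little information. All 5 guides had a lower mean in knockouts, beside 359 of 710 miRNAs with a negative and 351 with a positive difference and an overall median of -0.00147. These 5 values come from the same arrays and from miRNAs that varied together, so they are not independent. For 0 of the 5 did the genotypes fail to overlap, against 5 of 710 miRNAs (0.704%). The intervals show what 6 arrays per genotype leave unresolved: for mmu-miR-27a, a level in knockouts lower by 0.81 or higher by 0.12 on the log2 scale. In whole blood a smaller number of cells of a type and less of a miRNA per cell cannot be told apart.

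The passenger strands gave differences of either sign. They were -0.17 for mmu-miR-27a* (SE 0.15, limma adjusted p = 0.799) and -0.03 for mmu-miR-24-2* (SE 0.17, limma adjusted p = 0.956), the strands of the chromosome 8 locus. For those of the chromosome 13 locus they were 0.09 for mmu-miR-27b* (SE 0.15, limma adjusted p = 0.885) and 0.13 for mmu-miR-24-1* (SE 0.17, limma adjusted p = 0.848). All 4 overlapped between the genotypes, and 0 of 4 passed.

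**Figure D2:**
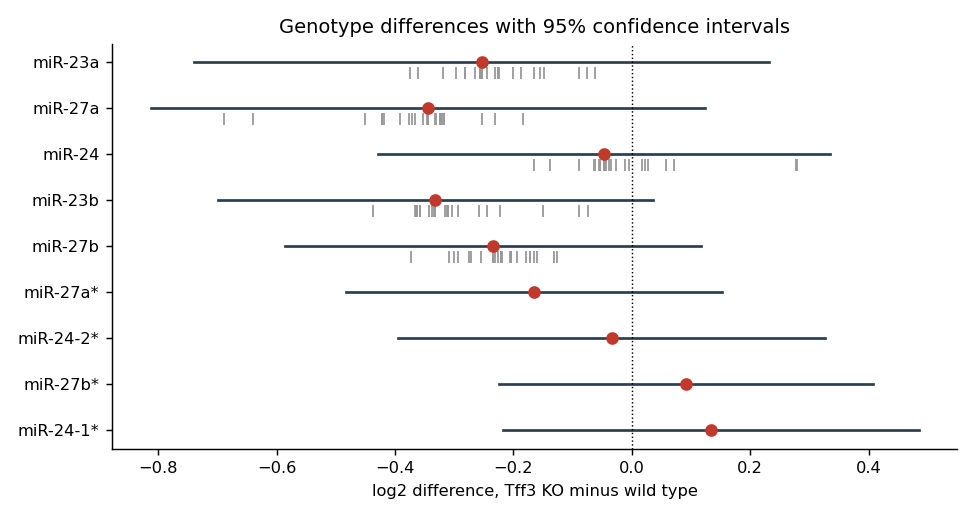
Difference in normalized log2 level, Tff3 KO minus wild type, for the 5 guide strands and 4 passenger strands; points are the limma estimates over 6 against 6 mice, lines the 95% intervals, and grey ticks the estimates of the guides under the alternative settings. Every interval includes 0; that of miR-23b, from -0.70 to 0.04, comes nearest to leaving it out.

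The guides differed in how far they spread over the mice. The SD over all 12 arrays was 0.44 for both mmu-miR-23a and mmu-miR-27a, 0.32 for mmu-miR-23b, 0.29 for mmu-miR-24 and 0.28 for mmu-miR-27b, beside a median of 0.33 over all 710 miRNAs. The highest array exceeded the lowest 2.98-fold for mmu-miR-23a and 3.27-fold for mmu-miR-27a on the scale of normalized intensity + 50. For mmu-miR-27b the same ratio was 1.68-fold, and for mmu-miR-24 it was 1.99-fold. In each paralogue pair the chromosome 8 miRNA had the wider spread, a description for which no test was made.

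KO-1 carried much of that spread. Its deviation from the mean over 12 arrays was -1.10 for mmu-miR-23a, -0.76 for mmu-miR-27a, -0.72 for mmu-miR-23b and -0.43 for mmu-miR-27b, but -0.06 for mmu-miR-24. On the same array miR-451, the red-cell miRNA, stood at 11.52, the highest of the 12, and miR-150, an abundant lymphocyte miRNA, at 10.57, the lowest. The other erythroid miRNAs were not uniform in KO-1. miR-144 at 12.12 and miR-16 at 15.63 were the highest of all arrays, and miR-25 at 14.12 shared the highest level. miR-486 at 15.22 shared the lowest level, and miR-92a at 13.02 lay between the extremes. The mean level of the 6 lymphocyte miRNAs in KO-1 was 7.97, with all 12 arrays between 7.97 and 9.38. The part of the cell mixture in these values was not tested.

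WT-8 differed from the other wild types in another way. There mmu-miR-27a was 0.95 above its mean over 12 arrays and mmu-miR-23a 0.48 above, while mmu-miR-24 deviated by -0.01 and mmu-miR-27b by 0.13. On this array miR-223, the main miRNA of granulocytes, was at 13.11, with the other wild types between 10.09 and 10.68 and the knockouts between 10.62 and 11.44. The 5 myeloid miRNAs, miR-223 included, had a mean level of 9.14 in WT-8, the highest of the wild types, whose lowest was 7.78. The other members of that list did not all rise there. miR-155 at 7.06 and miR-146a at 8.17 were the highest of the wild types. miR-142-5p at 10.83 and miR-142-3p at 6.53 lay below WT-7, at 11.44 and 6.55. The part of myeloid cells in the mmu-miR-27a value was not tested.

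**Figure D3:**
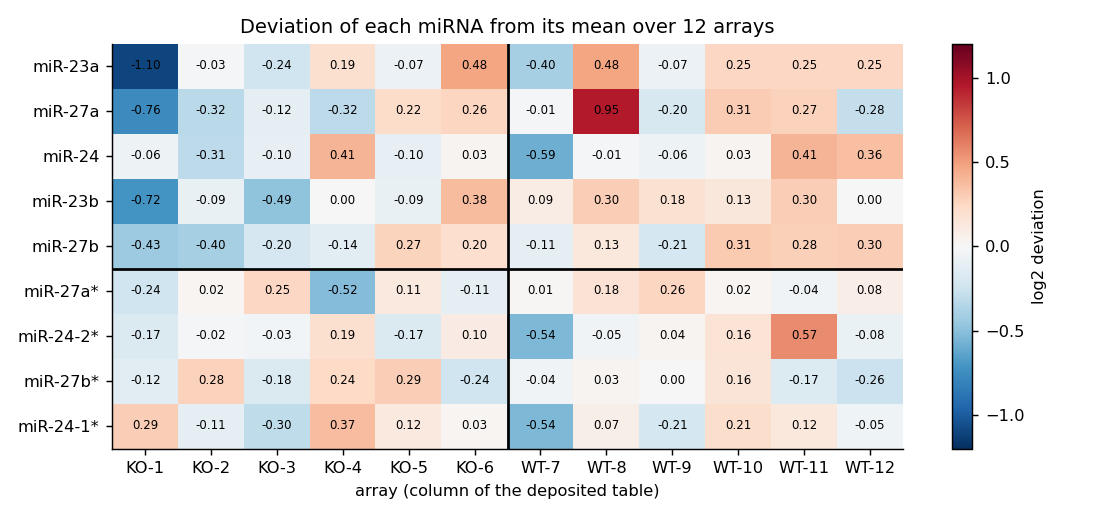
Deviation of the log2 level of each guide strand (above the line) and passenger strand (below it) from its own mean over 12 arrays; columns are the arrays as the deposited table names them, knockouts left of the vertical line. KO-1 is blue for all guides but miR-24 (-1.10 for miR-23a), while WT-8 is dark red in the miR-27a row at 0.95 and WT-7 is blue for miR-24 and both of its passenger strands.

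Paralogues were set against each other within each array. mmu-miR-23a minus mmu-miR-23b was 0.57 ± 0.22 (SD, n = 6) in knockouts and 0.49 ± 0.28 (SD, n = 6) in wild types, on the log2 scale. It was smallest in WT-7 at 0.04 and in KO-1 at 0.15, and it reached 0.78 in both genotypes. mmu-miR-27a minus mmu-miR-27b was 0.06 ± 0.17 (SD, n = 6) in knockouts and 0.17 ± 0.45 (SD, n = 6) in wild types. Its wild-type extremes were 0.94 in WT-8 and -0.46 in WT-12, so it spanned a wider range in wild types than in knockouts, where it ran from -0.21 to 0.20. These are differences between probes, of which only the change from array to array can be read.

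The miR-23 and miR-27 guides varied in parallel across mice by Pearson's r, though not past the threshold by rank. Over 12 arrays the paralogues mmu-miR-23a and mmu-miR-23b had the highest correlation of the 10 pairs (Pearson r = 0.83, permutation p = 0.00177, adjusted over the 10 pairs 0.0177). Spearman's rho was 0.74 (permutation p = 0.00769, adjusted 0.0571). Without KO-1 and WT-7, the arrays farthest from the median, r was 0.81. It was 0.93 within knockouts (exact permutation p = 0.00556) and 0.41 within wild types (exact permutation p = 0.408).

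mmu-miR-27a and mmu-miR-27b gave r = 0.66 and rho = 0.69 over 12 arrays (permutation p = 0.0166 and 0.0171, adjusted 0.0331 and 0.0571). Without WT-8 and KO-1 r was 0.70, and within genotypes it was 0.91 in knockouts and 0.25 in wild types (exact permutation p = 0.0153 and 0.644). Within the chromosome 8 locus mmu-miR-23a and mmu-miR-27a gave r = 0.70 and rho = 0.59 (permutation p = 0.0158 and 0.0463, adjusted 0.0331 and 0.0772), r = 0.58 without KO-1 and WT-7, 0.77 in knockouts and 0.59 in wild types. Within the chromosome 13 locus mmu-miR-23b and mmu-miR-27b gave r = 0.62 and rho = 0.48 (permutation p = 0.0285 and 0.118, adjusted 0.0475 and 0.148). That relation rested on KO-1 and KO-3, since r was 0.33 without them, and it was -0.01 within wild types.

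Of the pairs that cross the loci and the families, mmu-miR-23a with mmu-miR-27b gave r = 0.69 and rho = 0.63 (permutation p = 0.00701 and 0.0333, adjusted 0.0331 and 0.0666), and r = 0.57 without KO-1 and WT-7. mmu-miR-27a with mmu-miR-23b gave r = 0.69 and rho = 0.71 (permutation p = 0.0135 and 0.0125, adjusted 0.0331 and 0.0571), and r = 0.45 without WT-8 and KO-1. The values within a locus, 0.70 and 0.62, thus lay among those of pairs that cross the loci, with no test made between them. In all, 6 of 10 pairs passed 0.05 after adjustment by Pearson's r and 0 of 10 by Spearman's rho.

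The pairs with mmu-miR-24 did not pass. Its r was 0.45 with mmu-miR-23a (rho 0.66), 0.45 with mmu-miR-27b (rho 0.51), 0.19 with mmu-miR-23b (rho 0.45) and 0.03 with mmu-miR-27a (rho 0.21) (permutation p adjusted for Pearson's r from 0.184 to 0.933). The median r over the 10 pairs was 0.64, beside a median of -0.00318 and a 95th percentile of 0.629 over all pairs of the 355 miRNAs at or above the median level. All these values share arrays and their normalization. The correlations of mmu-miR-24 were the ones that moved most with the scaling, from 0.03 to 0.89 for its pair with mmu-miR-27a when no normalization was used.

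**Figure D4:**
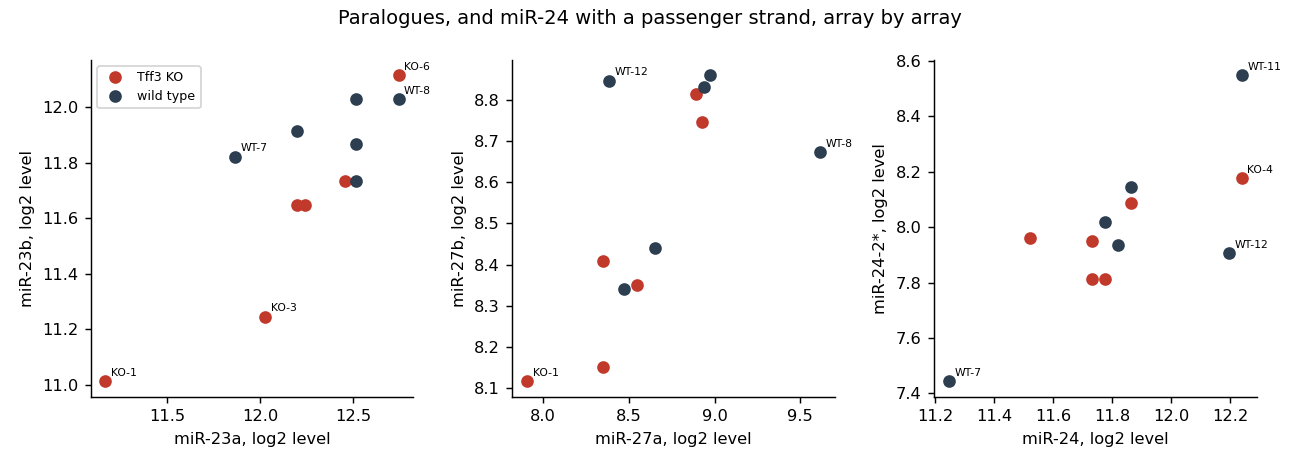
Log2 levels of paralogue pairs and of miR-24 against its passenger strand miR-24-2*, 1 point per array, with the arrays at the edges named. The miR-23 pair lies along a line (r = 0.83), the miR-27 pair is pulled apart by WT-8 and WT-12 (r = 0.66), and the miR-24 panel is stretched by WT-7 at the lower left and WT-11 at the upper right (r = 0.76).

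Among the passenger strands, those of miR-24 were correlated with their guide after quantile normalization, though not under the other scalings tried for them. mmu-miR-24-2* and mmu-miR-24 gave r = 0.76 (permutation p = 0.00585, adjusted over 5 pairs 0.0292) and rho = 0.68 (adjusted 0.0728). mmu-miR-24-1* and mmu-miR-24 gave r = 0.66 (permutation p = 0.0185, adjusted 0.0462) and rho = 0.64 (adjusted 0.0728). Both rested on a few arrays and on the scaling: without the 2 farthest arrays r was 0.39 and 0.37, with no normalization 0.24 and -0.00455, and at the 75th percentile -0.15 and -0.42. The passenger strands of the loci gave r = 0.54 with each other (permutation p adjusted 0.117). mmu-miR-27a* gave r = 0.38 with mmu-miR-27a, and mmu-miR-27b* gave r = -0.15 with mmu-miR-27b (permutation p adjusted 0.275 and 0.626).

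The 3 miRNAs with the highest r to each guide over the 12 arrays were named among the 355 at or above the median level, as a description. For mmu-miR-23a these were mmu-miR-23b, mmu-miR-342-3p (0.80) and mmu-miR-139-5p (0.80). For mmu-miR-27a they were mmu-miR-139-5p (0.88), mmu-miR-361 (0.88) and mmu-miR-339-5p (0.79). mmu-miR-23b had mmu-miR-23a, mmu-miR-483 (0.81) and mmu-miR-339-5p (0.78) beside it, and mmu-miR-27b had mmu-miR-483 (0.90), mmu-miR-2145 (0.85) and mmu-miR-342-3p (0.85). mmu-miR-342-3p, mmu-miR-139-5p, mmu-miR-339-5p and mmu-miR-483 each stood near more than one guide. For mmu-miR-24 the closest were mmu-miR-1962 (0.78), mmu-miR-24-2* (0.76) and mmu-miR-431 (0.76), and these fell to -0.14, 0.24 and -0.03 with no normalization, whereas those of the other 4 guides were then 0.73 to 0.93.

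Within the knockouts, the sex of each column is known and females had the higher mean for all 5 guides. mmu-miR-23a was 0.65 higher in females on the log2 scale (SE 0.29, limma adjusted p = 0.647). mmu-miR-23b was 0.53 higher (SE 0.23) and mmu-miR-27b 0.45 higher (SE 0.20), both with that same limma adjusted p. Without KO-1, a male, the mmu-miR-23a difference was 0.34. The differences for mmu-miR-27a and mmu-miR-24 were 0.45 (SE 0.24) and 0.27 (SE 0.21), both with a limma adjusted p of 0.761, and they were 0.28 without KO-1 and 0.13 without KO-4, respectively. After adjustment 0 of 5 passed, as did 0 of 710 miRNAs (0% called). At an unadjusted p under 0.05 there were 3 of 5 guides and 53 of 710 miRNAs (7.46%), 32 with a positive and 21 with a negative difference. That number of miRNAs was 21 without KO-1 and 103 without KO-3. The guides are correlated, so that the 3 are not separate observations. In both genotypes the females are the samples numbered 4 to 6, and sex and sample number cannot be told apart.

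The authors' normalized value table names its columns by sample, which gave a sex to the wild types too. Its samples are the same mice as the columns above, with other names for the wild types. Over its 12 samples, with genotype as a covariate, mmu-miR-27b was 0.39 higher in females (SE 0.12, 95% interval 0.13 to 0.64, limma adjusted p = 0.224). Its male and female levels did not overlap in either genotype: 8.04 to 8.26 against 8.32 to 8.70 in knockouts and 8.25 to 8.57 against 8.72 to 8.75 in wild types. This held for 1 of the 5 guides and for 9 of 710 miRNAs (1.27%). mmu-miR-24 was 0.36 higher (SE 0.14, limma adjusted p = 0.310) and mmu-miR-23a 0.46 higher (SE 0.20, limma adjusted p = 0.357). The differences for mmu-miR-23b and mmu-miR-27a were 0.21 and 0.14 (SE 0.15 and 0.21, limma adjusted p = 0.557 and 0.799). Again 0 of 5 guides passed, beside 1 of 710 miRNAs (0.141%), and 3 of 5 had an unadjusted p under 0.05, beside 87 of 710 (12.3%). The 3 wild-type females had an identical mmu-miR-23a level of 12.32, which is 1 shared rank and not a measured absence of spread.

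**Figure D5:**
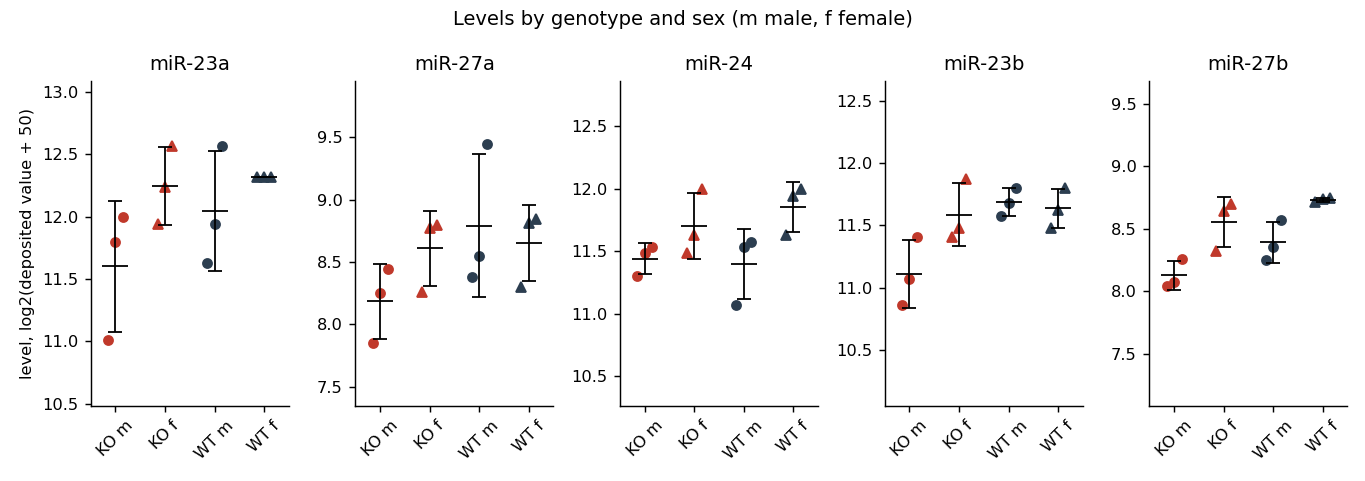
Level of the 5 guide strands, log2(value + 50) in the authors' normalized table, by genotype and sex; circles are males, triangles females, horizontal bars means and vertical bars 1 SD over 3 mice. For miR-27b the females lie above the males in both genotypes, while for miR-27a a wild-type male at 9.45 lies above all other mice.

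The 1 miRNA that passed for sex was miR-122, a liver miRNA, which was 3.44 higher in females (SE 0.60, limma adjusted p = 0.0357). Other markers moved in the same comparison without passing: miR-192 of the hepatocyte miRNAs by 0.93, miR-451 by -0.73 and miR-342-3p by 0.83 (limma adjusted p = 0.0972 for each). The other erythroid miRNAs ran from -0.69 for miR-144 to -0.04 for miR-486. The other lymphocyte miRNAs were of either sign, from -0.31 for miR-29c to 0.54 for miR-181a. Markers of other lists moved as far or nearly so, with larger adjusted p. Those of smooth muscle and stroma ran from 0.29 for miR-214 to 0.97 for miR-125b-5p (limma adjusted p = 0.384 and 0.224). The myeloid miRNAs ran from -0.67 for miR-142-5p to 0.02 for miR-155 (limma adjusted p = 0.310 and 0.967). miR-194, the last of the hepatocyte miRNAs, was at 0.37 (limma adjusted p = 0.360). Summed deposited intensity of the 3 hepatocyte miRNAs ranged from 2288.75 to 15876 in knockouts and from 4225.5 to 10463 in wild types. Their part in the sex differences of the guides was not tested.

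Whether the sexes differed by unequal amounts in the genotypes was tested in the same table. The difference of differences (female minus male, knockout minus wild type) was 0.57 for mmu-miR-27a (SE 0.40) and 0.24 without the second wild type of the value table. It was 0.37 for mmu-miR-23a (SE 0.40), 0.07 without KO-1 and 0.11 without that wild type. It was 0.52 for mmu-miR-23b (SE 0.28), 0.08 for mmu-miR-27b (SE 0.24) and -0.20 for mmu-miR-24 (SE 0.29), the last -0.04 without the first wild type. For mmu-miR-23b the female minus male difference was 0.47 in knockouts and -0.05 in wild types. The limma adjusted p ran from 0.679 to 0.945, so 0 of 5 passed. Among all miRNAs 0 of 710 passed (0% called) and 42 (5.92%) had an unadjusted p under 0.05, with 0 of the 5 guides among them.

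miRNAs known to act in the same settings as these clusters were set beside them. Of 6 on lymphoid and myeloid fate (miR-181a, miR-181b, miR-150, miR-155, miR-223 and miR-146a) 0 passed for genotype, with 4 differences above and 2 below 0. The largest were -1.08 for miR-181a (SE 0.27, limma adjusted p = 0.135) and -0.89 for miR-181b (SE 0.24, limma adjusted p = 0.141), both known from early lymphoid development. Of 6 on angiogenesis (miR-126-3p, miR-126-5p, miR-221, miR-222, miR-92a and miR-210) 0 passed, with 1 difference above and 5 below 0 and a median of -0.28. Examples are -0.45 for miR-221 (SE 0.22, limma adjusted p = 0.535) and -0.38 for miR-210 (SE 0.22, limma adjusted p = 0.638). Of 6 on muscle atrophy and TGF-beta signalling (miR-21, miR-29a, miR-29b, miR-29c, miR-206 and miR-1) 0 passed, all 6 were above 0, and the median was 0.08. They ran from 0.000298 for miR-29a (SE 0.16) to 0.52 for miR-206 (SE 0.27), a dim miRNA, so the shared sign says little. Of all 710 miRNAs 351 were above 0 and 359 below, and 0 passed.

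mmu-miR-128, with the displaced miR-27 seed, had levels of 9.62 ± 0.46 (SD, n = 6) in knockouts and 9.59 ± 0.15 (SD, n = 6) in wild types. Its difference was 0.03 (SE 0.19, limma adjusted p = 0.967), beside -0.34 and -0.23 for the miR-27 guides. Within knockouts it was lower in females by -0.69 on the log2 scale (SE 0.23, limma adjusted p = 0.513), the sign opposite to that of all 5 guides.

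The blood cells that could carry these miRNAs were followed by marker lists. For genotype, 0 miRNAs passed in any of them. The erythroid list, led by miR-486 and miR-16, had 3 differences above and 3 below 0, and the myeloid list 5 above 0 with a median of 0.17. The lymphocyte list had 2 above and 4 below 0 with a median of -0.41. The platelet list, led by miR-21, had a median of -0.02. The endothelial list, with the same miR-126 strands as the platelet list, had a median of -0.18. Markers of smooth muscle and stroma, of skeletal and heart muscle, and of hepatocytes had medians of 0.07, 0.23 and -0.46, against an overall median of -0.00147. In each list 0 markers were at or below an intensity of 0 on all arrays. That does not show detection, as some were dim, with mean levels of 6.29 for miR-1, 6.31 for miR-126-5p and 6.71 for miR-206.

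The ratio of miR-451 to miR-23a is used in serum and plasma work as a sign of red-cell content, with miR-23a as the steadier partner. In this blood the log2 ratio was -1.40 ± 1.04 (SD, n = 6) in knockouts and -1.55 ± 0.53 (SD, n = 6) in wild types. It ran from -2.26 in KO-6 to 0.35 in KO-1 among knockouts, and from -2.15 to -0.76 among wild types, and KO-1 lay above all other arrays. The position of 0 has no meaning for a ratio of different probes. The genotypes differed by 0.16 (exact permutation test over all arrangements, two-sided p = 0.775), and by -0.19 without KO-1. KO-1 combined the highest miR-451 with the lowest mmu-miR-23a level of all 12 arrays. In this blood mmu-miR-23a was not a steady partner, with an SD of 0.44 beside a median of 0.33 over all 710 miRNAs. The ratio therefore moved with both miRNAs and is no measure of red cells alone.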

How the data were processed

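Blood miRNAs of 12 mice were measured on 1 array each. The authors deposited a table of linear intensity (-64 to 64623, 3.31% below 0), which looks background-subtracted and is not normalized between arrays, and a second table of intensity values normalized by the authors, floored at 1, with the distributions made alike. For scanner, background method, miRBase release and build: not given in the sources used here. Each column of the first table matched 1 column of the second in rank (best Spearman correlation at least 0.99997, second best at most 0.952). Both tables thus hold the same arrays, and a wild-type column and a wild type named by sample can be the same mouse. Wild-type columns were nevertheless not tied to samples in the fits, which used the column names. The TaqMan measurements that the design text mentions were not analysed here.

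Intensities were quantile-normalized, and log2(intensity + 50) was tested with limma 3.58.1 (R 4.3.3; lmFit, eBayes, Benjamini-Hochberg over all 710 miRNAs, two-sided, no filter). Correlations used 100000 permutations (scipy 1.17.1, Python 3.11.15), and figures were drawn with matplotlib 3.10.9. Nothing states whether mice were littermates, and the tests treated them as independent. The limma p-values set a difference against the spread between these mice, each measured on 1 array. Named miRNAs were the 5 guides, the other strands of their hairpins, miRNAs sharing a seed, the 3 most correlated per guide, and marker and companion lists. The guides and the lists were chosen with earlier results of these data known. Alternatives covered normalization, offset, filter, variance model, column block, value table, replicate block, sex and each array left out.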

Additional observations from a re-analysis of the deposited data

Results flagged for a closer look

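In KO-1 the log2 difference between mmu-miR-23a and mmu-miR-23b was 0.15, where the other 5 knockouts lay between 0.55 and 0.78. It was -0.50 from their mean of 0.66. Its gap to the nearest of them, divided by the range of the group, was 0.633, which is above Dixon's critical value for a group of 6. This was 1 of 32 groups examined (3.13%), and chance gives about 5%.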

How the results depend on the processing

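The 5 guides were fitted under 280 combinations of result and alternative, and 0 had an adjusted p under 0.05 (lowest 0.224). The genotype differences of mmu-miR-23a, mmu-miR-27a, mmu-miR-23b and mmu-miR-27b were below 0 under all 27 alternatives. That of mmu-miR-24 turned to 0.058 (75th percentile), 0.071 (no normalization), 0.28 (column block 1 to 8 against 9 to 12) and 0.28 (columns 1 to 8 only). Both column fits set the knockouts against WT-7 and WT-8 alone, so they make the same comparison. Leaving out arrays gave mmu-miR-24 differences from -0.17 (without WT-7) to 0.028 (without WT-11), above 0 also without KO-2 or WT-12. miRNAs called for genotype were 0, and 0 to 1 with an array left out (1 without WT-12). At an unadjusted p under 0.05 there were 64, but 39 at the 75th percentile and 19 with no normalization. miRNAs called for sex in knockouts were 3 with no normalization, 2 with an offset of 1, 1 with trended robust variance and 1 in the value table over 12 samples. The median of all sex differences moved from -0.04 to -0.27 with no normalization, while the guides' differences stayed above 0. The genotype by sex difference of mmu-miR-27b ran from -0.00502 (without the second wild type of the value table) to 0.20, and the miR-451 to miR-23a difference from -0.19 (without KO-1) to 0.33, with samples left out. The median r between guides was 0.83 at the 75th percentile, 0.75 with cyclic loess and 0.89 with no normalization, against 0.64. The causes were not tested. With the replicate block in the value table the genotype difference of mmu-miR-23b was -0.31, and it changed no call. Deviations of equal sample numbers correlated between -0.12 and 0.18, and 2 knockouts correlated best with the wild type of their own number. Such correlations cannot decide whether mice were paired by litter or handling. Sex as a covariate, chosen after seeing the data, left the mmu-miR-23b value at -0.31 (adjusted p = 0.486). Leaving out the filter changed nothing, as all 710 miRNAs were tested. For dim strands such as mmu-miR-27a* the signal over background limits what a difference can show.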
